A study of Mus musculus with 93 samples.

Results

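Beta-casein transcript was measured at a high level in the peripheral blood cells (PBCs) of some tumor-bearing mice and at control level in others, and the 2 sets were compared across all other genes. The blood came from female FVB/NJ mice carrying the MMTV/c-MYC transgene, which the promoter of the mouse mammary tumor virus drives in the mammary gland and which, per the study's methods, encodes c-MYC or a more stable point mutant in several transgenic lines. The series held 93 arrays, 65 from mice with advanced mammary tumors and 28 from tumor-free wild type females of the same strain, and each array belonged to a training or a validation cohort. Per the study's methods blood was drawn from the cheek about monthly and once more before euthanasia, at an average age of 431 days, and the labels do not say from which draw an array came. The red cells were lysed, and leukocyte RNA was amplified and hybridized to Affymetrix mouse genome arrays, 1 array per sample. Per the study's methods mice of both genotypes were kept breeding, and neither pregnancy nor nursing at the time of the draw is given for any array. The labels name no animals, lines or litters either, so whether arrays share a mouse is not known, and each error and p-value reflects the scatter of arrays, which may be technical in part.

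Only the 52 tumor arrays with the label numbers 6 to 32 (training) and 9 to 33 (validation) entered. Values are log2 RMA values, on which a step of 1 is a doubling of signal. The arrays were chosen by their measured Csn2 value. An array was called casein-positive where the brighter of the 2 Csn2 probe sets (a probe set is the group of probes read as 1 value) lay above 5, and casein-negative where it did not exceed the highest tumor-free control array. This gave 9 casein-positive arrays (5 training, 4 validation), 31 casein-negative arrays (18 training, 13 validation) and 12 arrays between the thresholds that entered neither set. The 13 remaining tumor arrays (training 1 to 5 and validation 1 to 8, the low-numbered arrays below) were not compared either. Because Csn2 chose the sets, both of its probe sets were left out of every test.

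Csn2 encodes beta-casein, the most abundant casein of mouse milk. Caseins form the micelles that carry calcium and phosphate, and their genes lie side by side on chromosome 5 and are switched on in secretory mammary cells by prolactin, whose receptor acts through the kinase JAK2 and the transcription factor STAT5. STAT5 dimers bind the palindrome TTCNNNGAA, and a site of this kind in the beta-casein promoter is a textbook STAT5 target. In a bulk blood sample, fewer cells of a type and less RNA per cell cannot be told apart.

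The casein genes span chr5:87666208-87932550 (GRCm38.p6) on chromosome 5, in the order Csn1s1 (chr5:87666208-87682578), Csn2 (chr5:87692619-87699429), Csn1s2a (chr5:87774450-87788798), Csn1s2b (chr5:87808121-87824421) and Csn3 (chr5:87925579-87932550). The 250 bases before the start of the milk genes with a STAT5 palindrome upstream are shown here, since these are the genes whose signal in blood is at issue. Capitals mark the match to TTCNNNGAA, which reads the same on both strands and was the only motif searched. The sequences are from RefSeq, 5′ to 3′ on the gene's own strand: Csn2 at chr5:87699426-87699675 on the minus strand, Csn1s1 at chr5:87665958-87666207 on the plus strand and Glycam1 at chr15:103565082-103565331 on the minus strand.
Csn2: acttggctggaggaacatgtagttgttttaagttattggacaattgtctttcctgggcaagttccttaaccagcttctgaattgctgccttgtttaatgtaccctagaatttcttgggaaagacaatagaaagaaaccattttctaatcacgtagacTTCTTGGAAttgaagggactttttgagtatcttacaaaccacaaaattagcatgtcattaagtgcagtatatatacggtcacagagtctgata
Csn1s1: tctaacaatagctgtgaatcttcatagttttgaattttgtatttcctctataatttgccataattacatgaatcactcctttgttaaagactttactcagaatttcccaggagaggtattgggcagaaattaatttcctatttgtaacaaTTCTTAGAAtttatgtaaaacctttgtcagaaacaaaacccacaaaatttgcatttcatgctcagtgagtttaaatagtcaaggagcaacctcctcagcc
Glycam1: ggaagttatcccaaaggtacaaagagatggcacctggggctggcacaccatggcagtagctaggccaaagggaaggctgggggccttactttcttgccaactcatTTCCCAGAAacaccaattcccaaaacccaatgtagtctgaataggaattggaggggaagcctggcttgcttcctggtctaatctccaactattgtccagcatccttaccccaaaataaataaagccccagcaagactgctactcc
The match began 93 bases before the start in Csn2, 100 before it in Csn1s1 and 145 before it in Glycam1. In Csn1s2a the first match lay 20 bases after the start. Windows of 300 bases, 250 before and 50 after the start, held the motif in 8.3% of all 32851 RefSeq promoters and in 3 of the 9 milk protein genes with a window besides Csn2. Wap, Lalba, Wfdc18, Lao1, Mfge8 and Cel had no match in this window. A match describes letters only and is no measure of binding.

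The Csn2 values that chose the sets were 9.17 and 8.48 on validation arrays 24 and 26, 8.28, 8.1, 7.21 and 6.26 on training arrays 24, 27, 22 and 17, 5.57 and 5.19 on validation arrays 20 and 16, and 5.01 on training array 25. Just outside the set stood validation array 14 at 4.77, and the lowest array between the thresholds was validation 27 at 2.9. The casein-negative arrays lay between 2.07 and 2.76 and the lowest tumor-free control at 2.09. These values are a description and were not tested.

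The arrays read as white blood cells in both sets. Cd79a (B cell receptor), Cd3e (T cell receptor), S100a8 (neutrophil calcium-binding protein) and Csf1r (monocyte growth factor receptor) averaged 9.96, 10.96, 13.78 and 12.48 in casein-positive arrays, against 9.82, 10.91, 13.75 and 12.45 in casein-negative arrays. The control probe sets that follow RNA integrity were read on each array, where a lower 5′ minus 3′ difference means less signal from the 5′ end. The GAPDH difference averaged -1.75 ± 0.937 (SD, n = 9) in casein-positive arrays and -1.26 ± 0.2 (SD, n = 31) in casein-negative arrays (exact permutation test, two-sided, p = 0.0103, adjusted p = 0.0508 over 5 measures). It was -3.95 on training array 22, -2.4 on training array 27 and -2 on validation array 20, below the -1.7 of the lowest casein-negative array. The actin difference averaged -0.756 ± 0.627 and -0.51 ± 0.104 (exact permutation p = 0.0486, adjusted p = 0.081), and its lowest value, -2.3, was again training array 22. The dap spike-in, a bacterial RNA added to samples, averaged 9.03 ± 0.755 in casein-positive and 8.37 ± 0.71 in casein-negative arrays (exact permutation p = 0.0203, adjusted p = 0.0508), whereas the controls averaged 2.22 ± 0.322 (SD, n = 28), and controls are given for description only. The 18S control (exact permutation p = 0.386) and the array median (p = 0.375) gave adjusted p = 0.386 each. None of the 5 measures passed the threshold of 0.05.

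**Figure D1:**
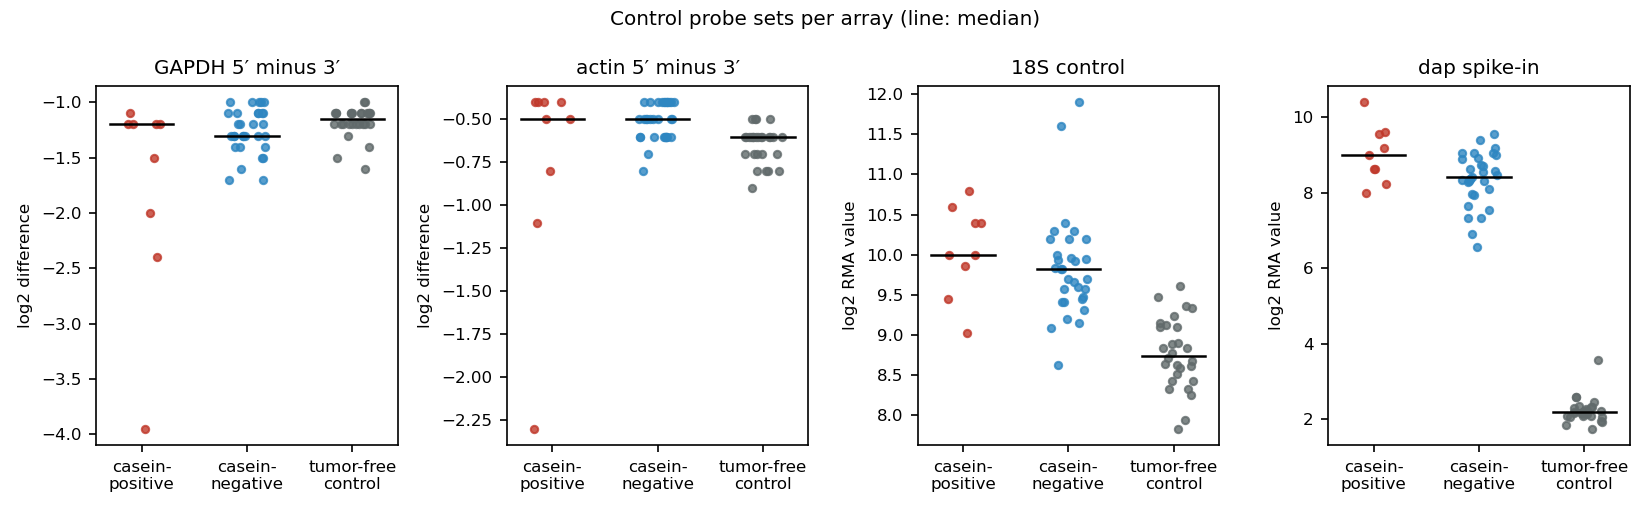
Control probe sets on each array in log2 units, for 9 casein-positive, 31 casein-negative and 28 control arrays, with points for arrays and a line at the median. The GAPDH difference reached -3.95 on a casein-positive array, against a lowest value of -1.7 in casein-negative arrays, and the dap spike-in was near 2.22 in controls.

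Across the genome few genes passed the test between casein-positive and casein-negative tumor blood. Of those that passed, milk genes and the keratin Krt19 had the largest differences. The comparison asked which other transcripts differ when beta-casein is present in blood. With limma, cohort as a covariate and Benjamini-Hochberg adjustment over 45035 probe sets, 19 passed an adjusted p of 0.05 (0.0422%), 9 higher (0.02%) and 10 lower (0.0222%) in casein-positive arrays, and 6563 had an unadjusted p under 0.05. The 19 probe sets named 15 genes. Taking the brightest probe set of each of 18192 genes, 10 passed (0.055%), 5 in each direction (0.0275%). At an unadjusted p under 0.05, 8.25% of these genes were higher and 6.41% lower, so smaller differences below the threshold may exist.

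Csn1s2a, which encodes the mouse casein also called gamma-casein, had the largest difference. It measured 7.9, 7.91, 6.76, 7.43, 6.15, 4.42, 3.68, 3.25 and 3.43 on the casein-positive arrays from the highest to the lowest Csn2 value, against a lowest, median and highest value of 2.59, 3.06 and 3.49 in casein-negative arrays and 2.46, 3.04 and 3.62 in controls. Of the 9 arrays, 7 lay above every casein-negative array, and validation 16 and training 25, near the lower end of the Csn2 values, did not. The log2 fold change was 2.66 ± 0.335 (SE), a 6.33-fold higher signal (limma adjusted p = 1.42e-05). A second Csn1s2a probe set passed as well, at 2.15 ± 0.301 (adjusted p = 0.0001). Its other 3 probe sets averaged between 1.86 and 2.23 in casein-positive arrays and did not pass, with adjusted p between 0.227 and 0.934.

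Csn1s1, alpha-S1-casein, followed the same arrays with an exception. It measured 5.68, 5.53, 5.04, 5.38, 1.93, 3.57, 2.29, 2.25 and 2.58 in the same order of casein-positive arrays, against 1.54, 1.85 and 2.24 (lowest, median, highest) in casein-negative arrays and 1.57, 1.81 and 2.08 in controls. The value of 1.93 was training array 22, which had Csn2 at 7.21 and Csn1s2a at 6.15. The other 8 lay above every casein-negative array, though validation 16 and 20 did so by at most 0.05. The log2 fold change was 1.96 ± 0.269, a 3.89-fold higher signal (adjusted p = 8.44e-05).

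Csn3, kappa-casein, which caps the casein micelle, did not pass. It measured 4.69, 4.7, 4.68, 3.39, 2.84, 3.24, 3.08, 2.04 and 2.56 in casein-positive arrays, against 2.04 as the median of casein-negative arrays and 2.4 as the highest control. A casein-negative array, training 28, stood at 5.68, above every casein-positive array, and the next casein-negative array was at 2.64. The log2 fold change was 1.26 ± 0.277 (adjusted p = 0.0549). Training array 28 had Csn2 at 2.47 and also carried the highest casein-negative values of Csn1s1 (2.24) and of Wap (4.43). Csn1s2b, the remaining calcium-sensitive casein, averaged 2.38 in casein-positive and 2.02 in casein-negative arrays (0.37 ± 0.0954, adjusted p = 0.112). Odam and Prr27, the measured genes of the locus that encode no casein, had log2 fold changes of 0.16 ± 0.0813 and 0.11 ± 0.114 and did not pass (adjusted p = 0.353 and 0.688).

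**Figure D2:**
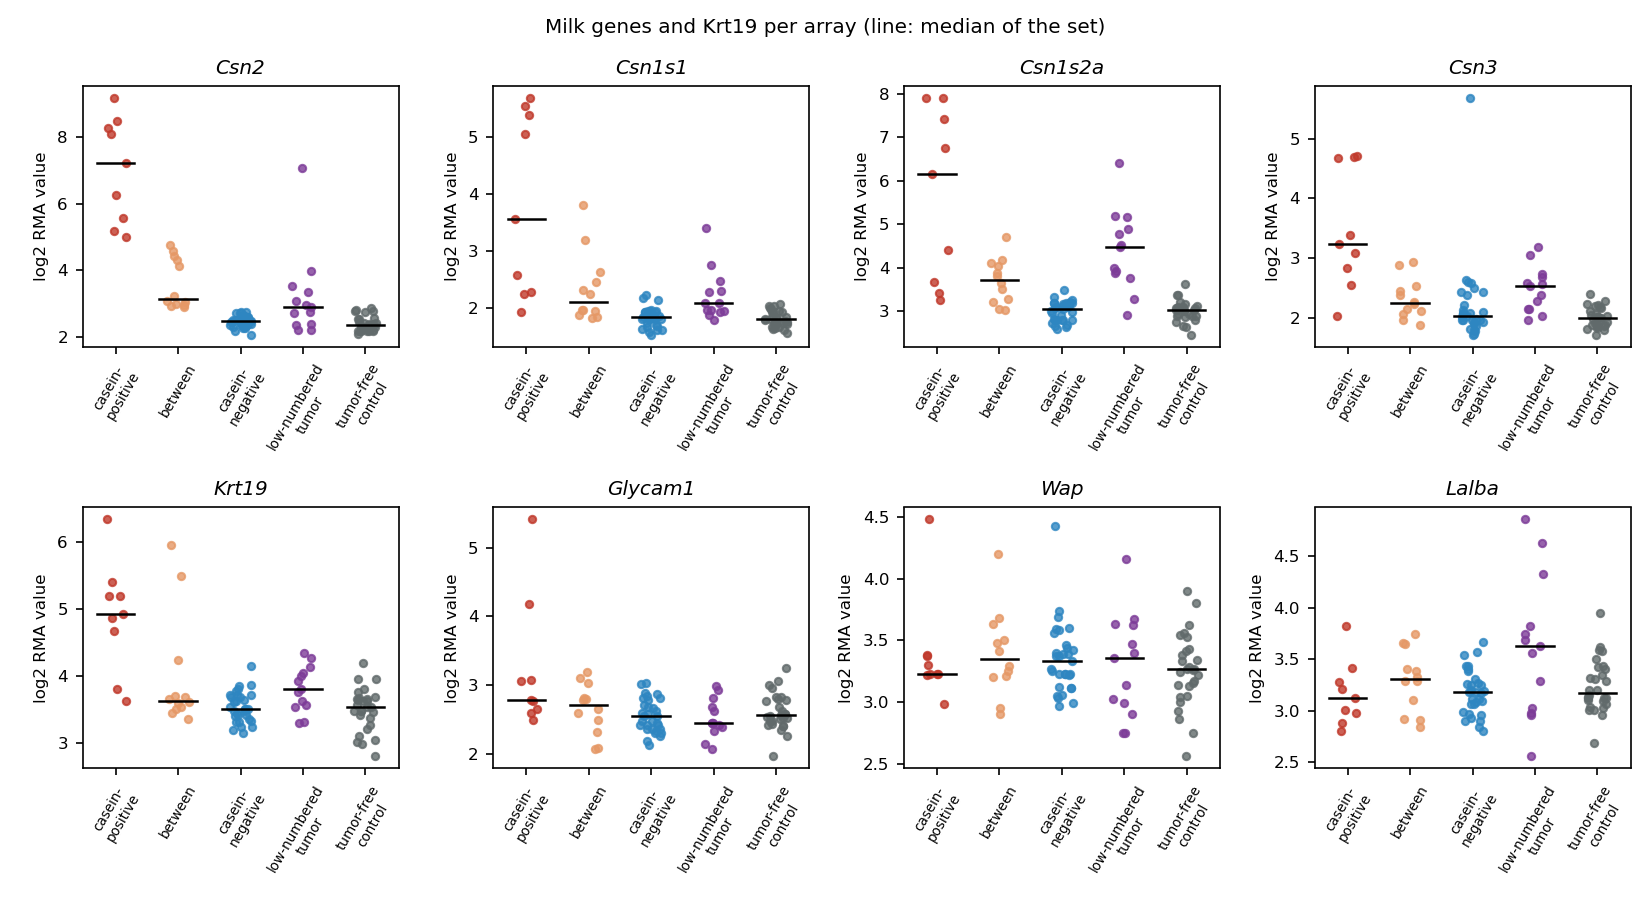
Log2 RMA values of 7 milk genes and Krt19, 1 point per array, for casein-positive arrays, arrays between the thresholds, casein-negative arrays, low-numbered tumor arrays and controls, with a line at each median. Csn1s2a reached 7.91 in casein-positive arrays against 3.49 in casein-negative arrays, while most casein-positive values of Wap and Lalba lay within the casein-negative range.

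The whey proteins and other milk products gave no call. Wap, whey acidic protein, averaged 3.38 in casein-positive and 3.35 in casein-negative arrays (0.03 ± 0.119, adjusted p = 0.943), with 1 high value, 4.48 on validation array 24, the array of the highest Csn2. Lalba, alpha-lactalbumin, the subunit that directs lactose synthesis, averaged 3.17 and 3.18 in casein-positive and casein-negative arrays (-0.01 ± 0.0922, adjusted p = 0.983). Glycam1, a mucin-like milk protein that is also made by the venules of lymph nodes, averaged 3.23 and 2.56 in casein-positive and casein-negative arrays (0.67 ± 0.179, adjusted p = 0.115). It was at 5.41 on training array 24 and 4.18 on validation array 24, and at most 3.08 on the other casein-positive arrays. Btn1a1, the butyrophilin of the milk fat globule, had a log2 fold change of -0.10 ± 0.145, and Mfge8, the lactadherin of the globule membrane, of 0.20 ± 0.138. In all, 2 of 12 milk protein genes passed, both higher, where 0.055% of all genes passed in either direction. The median log2 fold change of the list was 0.28, against 0.03 over all genes. Of the 27 genes of milk fat and lactose synthesis 0 passed, with 2 higher and 3 lower at an unadjusted p under 0.05 (8.25% of all genes were higher and 6.41% lower at that p) and a median of -0.02. The list includes Scd2, a fatty acid desaturase, at -0.48 ± 0.132 (adjusted p = 0.127) and Slc34a2, a phosphate transporter of secretory epithelia, at 0.31 ± 0.105 (adjusted p = 0.182).

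**Figure D3:**
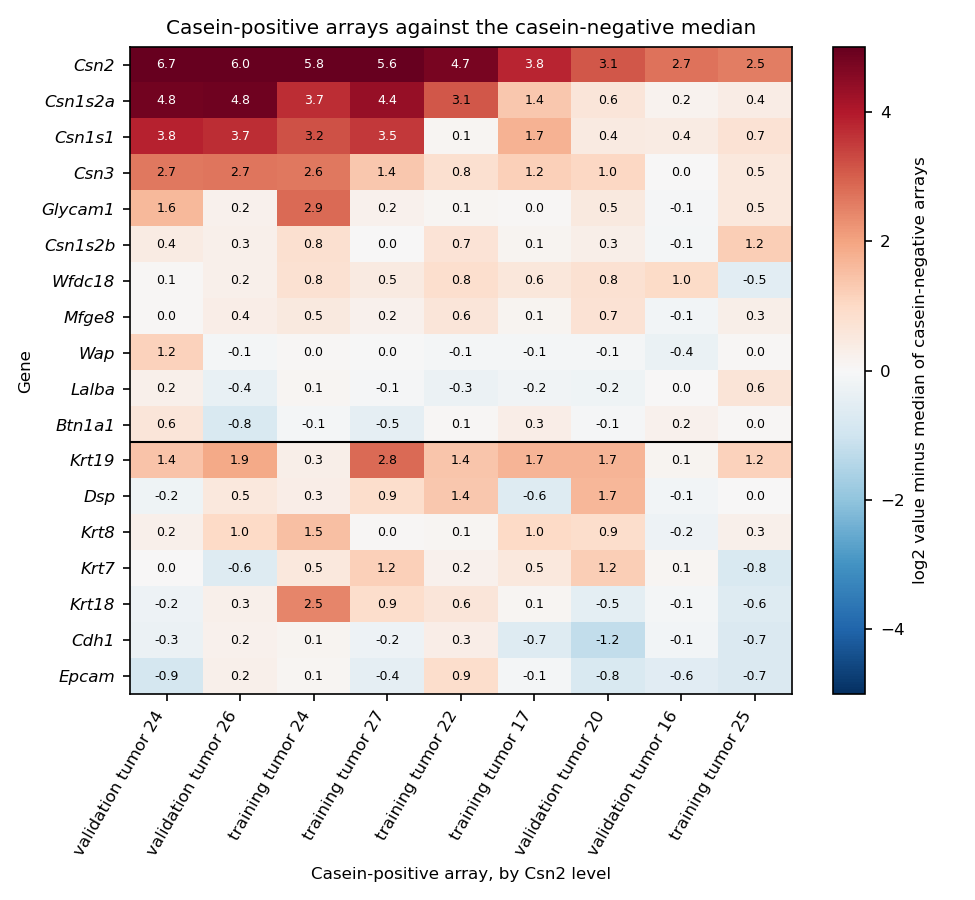
Difference of each casein-positive array from the median of the casein-negative arrays, in log2 units, for milk genes (above the line) and epithelial genes (below it), with arrays ordered by Csn2. Csn1s1 differed by 3.83 on validation array 24 but by 0.08 on training array 22, and Krt19 by 2.84 on training array 27.

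Within the 9 casein-positive arrays Csn1s1 varied together with the other caseins tested. It was correlated with Csn3 (Pearson r = 0.862, exact permutation p = 0.00373, adjusted p = 0.0224 over 6 relations, Spearman rho = 0.883, exact p = 0.00308, adjusted p = 0.0185) and with Csn1s2a (r = 0.842, exact permutation p = 0.015, adjusted p = 0.045, rho = 0.8, exact p = 0.0138, adjusted p = 0.0414). Without validation arrays 24 and 26, the arrays farthest from the Csn1s1 median, r was 0.755 with Csn3 and 0.73 with Csn1s2a over 7 arrays. The relation with Wap did not pass (r = 0.522, exact permutation p = 0.0495, adjusted p = 0.099, rho = 0.678, exact p = 0.0517, adjusted p = 0.103, r = 0.491 without those arrays). With Lalba r was -0.0173 (exact permutation p = 0.968, rho = 0.183, 0.0551 without those arrays), with the keratin Krt18 0.414 (exact permutation p = 0.282, rho = 0.167, 0.713 without them) and with the epithelial adhesion molecule Epcam -0.0566 (exact permutation p = 0.896, rho = -0.167, -0.0185 without them). None of these 3 relations passed, with adjusted p of at least 0.423.

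The luminal epithelial genes were read next, since caseins are made by luminal cells of the mammary gland. Krt19, a keratin of simple and ductal epithelia on chromosome 11 (chr11:100140810-100145926), had the smallest p of all probe sets. It measured 4.92, 5.4, 3.8, 6.34, 4.87, 5.2, 5.19, 3.63 and 4.67 in casein-positive arrays in the order of Csn2, against 3.15, 3.5 and 4.15 (lowest, median, highest) in casein-negative arrays and 2.8, 3.54 and 4.19 in controls. The 7 arrays other than training 24 and validation 16 lay above every casein-negative array. The log2 fold change was 1.36 ± 0.157, a 2.56-fold higher signal (adjusted p = 3.20e-06).

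The other luminal genes did not pass, which left 1 of 27 measured. Krt8, the usual partner of Krt18, had a log2 fold change of 0.46 ± 0.164 (adjusted p = 0.2) and Dsp, desmoplakin of the desmosome, 0.74 ± 0.286 (adjusted p = 0.23). Krt18 stood at 7.08 on training array 24, against 5.5 on the next casein-positive array, and averaged 4.94 in casein-positive and 4.66 in casein-negative arrays (0.28 ± 0.288, adjusted p = 0.681). Krt7 had 0.30 ± 0.295, Epcam -0.31 ± 0.201 and Cdh1, E-cadherin, -0.15 ± 0.243. The luminal transcription factors Foxa1, Gata3 and Elf3 had 0.00 ± 0.107, 0.10 ± 0.269 and 0.16 ± 0.109. Esr1 and Pgr, the estrogen and progesterone receptors, had 0.09 ± 0.231 and -0.08 ± 0.107. The list's median was 0.09 with 18 of 27 above 0, and over all genes 10304 of 18192 were above 0. At an unadjusted p under 0.05, 5 of the 27 were higher and 0 lower, against 8.25% and 6.41% of all genes. Of the 11 basal and myoepithelial genes 0 passed, with a median of 0.06, where 0.055% of all genes passed.

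The prolactin and STAT5 pathway was measured by 14 genes, and 0 passed, where 0.055% of all genes did. Prlr, the gene of the prolactin receptor, was on the list but was not among the genes measured. At an unadjusted p under 0.05, 2 of the 14 were higher and 1 lower, against 8.25% and 6.41% of all genes. Jak2 had a log2 fold change of 0.18 ± 0.0736 (adjusted p = 0.253), Stat5a of -0.06 ± 0.0589 and Stat5b of 0.01 ± 0.115. Elf5, the alveolar transcription factor, had 0.12 ± 0.0836, and its mean of 2.74 in casein-positive arrays lay beside 2.62 in casein-negative arrays and 2.75 in controls. The STAT5 targets Cish and Socs2 had -0.32 ± 0.263 and 0.22 ± 0.374, and Ccnd1, cyclin D1, had 0.52 ± 0.18 (adjusted p = 0.188). Jak2 and the Stat5 genes, each at a log2 value of about 10 or more in both sets, are also used by blood cells. The Myc probe set averaged 9.02 in casein-positive and 8.67 in casein-negative arrays (0.34 ± 0.286, adjusted p = 0.601), and 7.81 in controls.

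Further genes were higher in casein-positive blood. Gm11696, a predicted gene, measured 6.48, 6.23, 6.63, 7.11, 8.06, 6.08, 7.02, 5.59 and 6.57 on the casein-positive arrays in the order of Csn2, against a median of 5.79 and a highest value of 6.38 in casein-negative arrays (0.93 ± 0.19, adjusted p = 0.0442). Its highest value was training array 22. H2az2, a variant of histone H2A.Z, passed on 1 of its 2 probe sets (0.85 ± 0.178, adjusted p = 0.0492) and had 0.06 ± 0.0855 on the brighter one. Zfp184, a zinc finger protein, passed at 0.72 ± 0.134 (adjusted p = 0.0214), with 4.8 on training array 22 and at most 3.65 on the other casein-positive arrays. The remaining 2 higher probe sets carry no gene symbol and had 0.43 and 0.36.

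The 10 lower probe sets were of 9 genes. Ccr2, the chemokine receptor that brings monocytes out of the marrow, passed on 2 of 4 probe sets. The brightest measured 8.39, 8.99, 8.97, 8.94, 8.89, 9.03, 8.51, 9.22 and 8.4 in casein-positive arrays, against 8.66, 9.39 and 9.92 (lowest, median, highest) in casein-negative arrays. Of these, 3 lay below every casein-negative array. Its log2 fold change was -0.59 ± 0.114 (adjusted p = 0.0233), a second probe set had -1.14 ± 0.235 (adjusted p = 0.0442), and the others, at -0.53 and -0.70, did not pass (adjusted p = 0.132 and 0.16). B4galt5, a galactosyltransferase of glycolipid synthesis, had -0.71 ± 0.136, with 7 of 9 arrays below every casein-negative array. Glce, which modifies heparan sulfate, had -0.58 ± 0.117, Ankrd49, an ankyrin repeat protein, -0.59 ± 0.113 and the transcription factor Maf -0.58 ± 0.119. The other, dimmer probe sets of B4galt5, Glce and Maf did not pass. Their log2 fold changes were -0.01 for B4galt5, 0.07 and -0.22 for Glce, and between -0.62 and 0.10 for Maf. Zfp445, a zinc finger protein of imprinted regions, had -0.88 ± 0.166, Eif2ak2, the kinase PKR that senses double-stranded RNA, -0.86 ± 0.168, Tor1b, an ATPase of the endoplasmic reticulum, -0.79 ± 0.146, and Mettl16, an RNA methyltransferase, -0.54 ± 0.11. For these 4 genes the probe set that passed was not the brightest, and the brightest had -0.18, -0.20, -0.25 and -0.37 and did not pass. The remaining probe sets of Zfp445, Eif2ak2 and Tor1b had -0.23, -0.79 and -0.40 and did not pass either (limma adjusted p = 0.264, 0.0539 and 0.242).

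The lower calls were then read array by array. The lowest casein-positive value was on training array 22 for 6 of the 10 lower probe sets, on validation array 20 for 2, on training array 25 and validation array 24 for 1 each and on training array 27 for 0, and the highest was on validation array 16 for 7. Without the 3 arrays whose GAPDH difference lay below every casein-negative array, a fit chosen after seeing the data, 4 probe sets passed, all higher: Csn1s1 at 2.26 (adjusted p = 2.38e-06), Csn1s2a at 2.60 (adjusted p = 0.00023) and 2.07 (adjusted p = 0.000805), and Krt19 at 1.08 (adjusted p = 0.000354). None of the 10 lower probe sets passed in it, where 6 casein-positive arrays were left, and all 10 log2 fold changes stayed below 0. That of the brightest Ccr2 probe set was -0.57 (adjusted p = 0.689), against -0.59 with all arrays, that of Mettl16 -0.52 against -0.54 and that of Ankrd49 -0.49 against -0.59 (adjusted p = 0.709 each). Those of the other probe sets were smaller than with all arrays, with the second Ccr2 probe set at -0.72 against -1.14, Eif2ak2 at -0.67 against -0.86, Zfp445 at -0.56 against -0.88, Tor1b at -0.47 against -0.79, B4galt5 at -0.44 against -0.71, Maf at -0.42 against -0.58 and Glce at -0.41 against -0.58 (adjusted p between 0.709 and 0.856). The same 4 probe sets were the calls that remained when training array 22 or training array 27 alone was left out, and no lower probe set passed without validation array 20, or without validation array 24, whose GAPDH difference lay within the casein-negative range. With all arrays kept, 0 lower probe sets passed when the actin difference and 18S were added to the fit. The same count was 0 with 3 components of the control probe sets added. None of the 10 changed sign in these fits. The part of RNA integrity itself in the lower calls was not tested. Gm11696 (0.56, adjusted p = 0.856), Zfp184 (0.46, adjusted p = 0.623) and H2az2 (0.57, adjusted p = 0.856) did not pass without the 3 arrays.

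The cohorts were then fitted apart, which gives the same contrast in arrays that do not overlap. In the training cohort (5 casein-positive, 18 casein-negative) 139 probe sets passed (0.309%), 42 higher and 97 lower. In the validation cohort (4 and 13) 0 passed, with 1798 at an unadjusted p under 0.05 and a smallest adjusted p of 0.328. Its casein-negative array 19 had a median r of 0.910 with the other arrays of both sets, the lowest of all, with the next at 0.960. No fit left out this array alone, and its part in the cohort result was not tested. Csn1s2a had a log2 fold change of 2.62 ± 0.345 in the training and 2.71 ± 0.595 in the validation cohort, Csn1s1 1.82 ± 0.304 and 2.13 ± 0.443, and Krt19 1.38 ± 0.217 and 1.33 ± 0.22. These genes passed in the training cohort (adjusted p = 0.00166, 0.0106 and 0.00798) and not in the validation cohort (adjusted p = 0.998, 0.861 and 0.328). All 19 probe sets had the same sign in both, which their choice on all arrays together favors. The largest gap was Zfp184, with 1.05 ± 0.192 in the training and 0.29 ± 0.104 in the validation cohort. A test of the difference between cohorts passed for 0 probe sets (limma interaction, 2613 at an unadjusted p under 0.05). Without training array 22 the training cohort had 8 calls, and without training array 17 it had 1037.

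**Figure D4:**
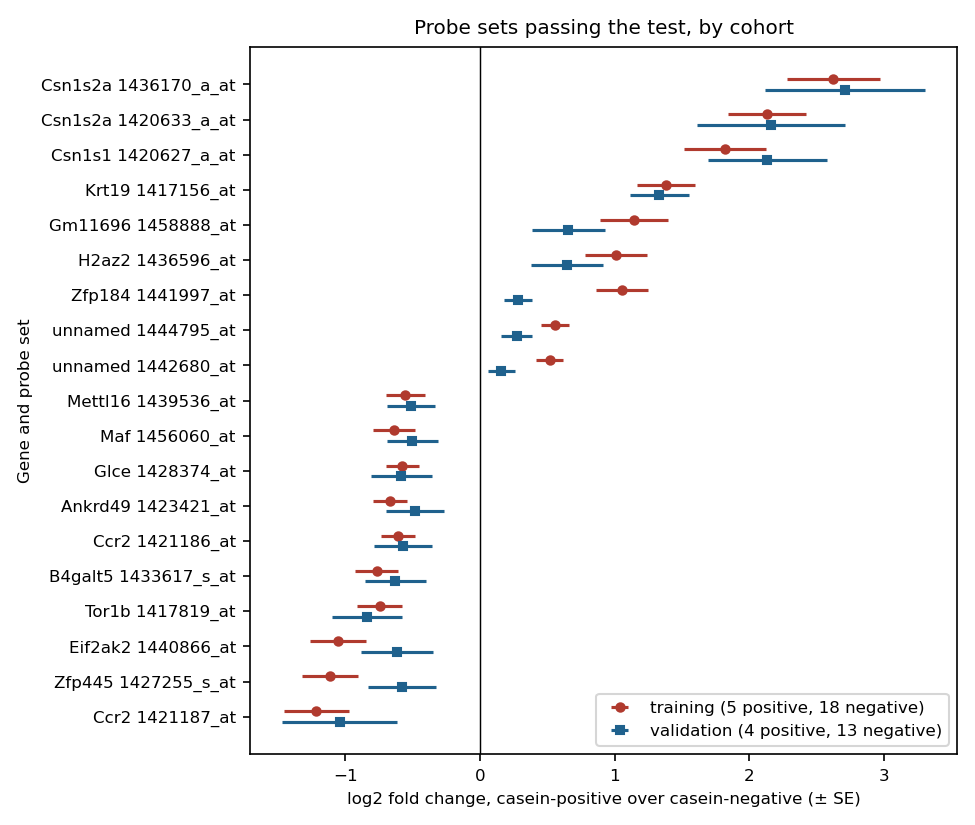
Log2 fold change of casein-positive over casein-negative arrays, with its SE, for the 19 probe sets that passed, fitted in the training cohort (5 and 18 arrays) and the validation cohort (4 and 13 arrays). Csn1s2a had 2.62 and 2.71 in the training and the validation cohort, and Zfp184 had 1.05 and 0.29.

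Lists of blood and tissue genes were set beside the casein difference. Over all genes, 10304 of 18192 had a log2 fold change above 0. Of 25 lists, 3 held a call: the milk proteins, the luminal genes and the monocyte genes. Ccr2 was the 1 of 11 monocyte genes that passed, lower, and the list's median was -0.26 with 1 gene above 0. Csf1r had 0.03 ± 0.245 and Cd68 -0.30 ± 0.195. The other 22 lists held 295 measured genes, of which 0 passed, where 0.055% of all genes did. At that share a count of 0 does not set these lists apart from other genes. Platelet genes had a median of 0.31 with 11 of 11 above 0, as with Itga2b, an integrin of platelets, at 0.71 ± 0.33 (adjusted p = 0.307). The mean level over the platelet list on an array had a median of 12.56 in casein-positive and 12.46 in casein-negative arrays. Its lowest value was 12.44 in casein-positive arrays and 8.14 in casein-negative arrays, so low casein-negative signal enters the fold changes. Granule protein genes of immature neutrophils had a median of -0.22 with 2 of 12 above 0, as with Prtn3, proteinase 3, at -0.66 ± 0.358 (adjusted p = 0.391). Genes of the secretory pathway, which a casein-making cell uses heavily, had a median of -0.15 with 3 of 21 above 0. Of the 21, 7 were lower at an unadjusted p under 0.05, against 6.41% of all genes. Among the 7 were Pdia3, a disulfide isomerase, at -0.37 ± 0.115 (adjusted p = 0.159) and Hspa5, the chaperone BiP, at -0.27 ± 0.098 (adjusted p = 0.211). B cell, T cell, NK cell, plasma cell and mature neutrophil genes had medians of 0.08, -0.01, 0.04, 0.02 and 0.04.

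Lists of other tissues were read as well, for blood drawn at the cheek. Salivary gland genes had a median of 0.13 with 13 of 13 above 0 and 2 higher at an unadjusted p under 0.05. Over all genes 10304 of 18192 were above 0, and 8.25% were higher at that p. The mean level over the list on an array ran from 3.20 to 3.82 in casein-positive arrays, from 3.11 to 4.01 in casein-negative arrays and from 3.21 to 5.66 in controls. Bpifa2, a salivary protein, was at 5.58 on training array 24 and at most 2.4 on the other casein-positive arrays. Skeletal muscle, skin, adipocyte and stromal or endothelial genes had medians of 0.13, 0.06, 0.23 and 0.21. The part of these tissues in the result was not tested.

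**Figure D5:**
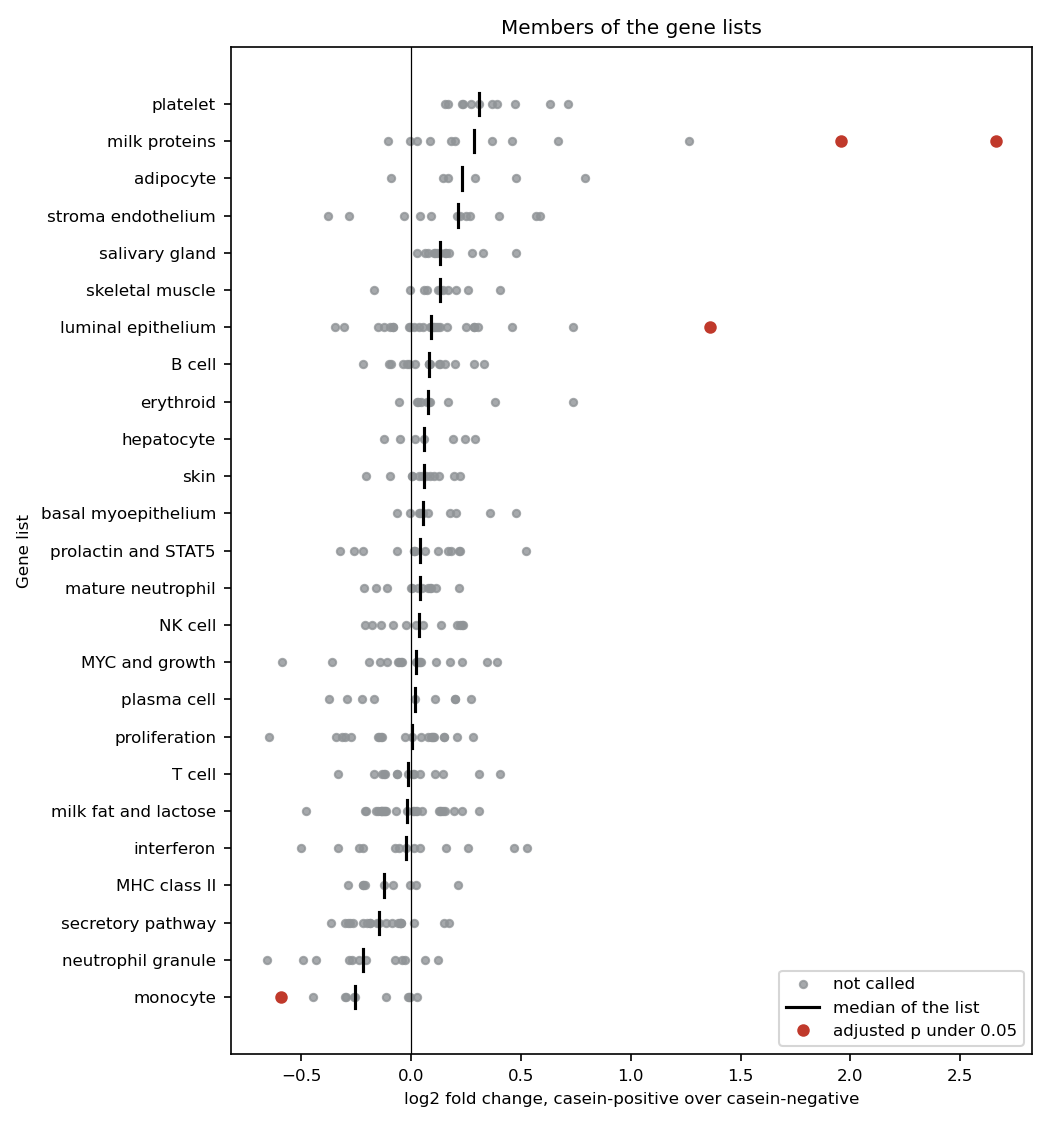
Log2 fold change of casein-positive over casein-negative arrays for the measured members of 25 gene lists, 1 point per gene, with a bar at each list's median and red points for genes that passed. Red points were Csn1s2a (2.66), Csn1s1 (1.96), Krt19 (1.36) and Ccr2 (-0.59), and platelet genes lay between 0.15 and 0.71.

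The 12 arrays between the thresholds carried the same genes on some arrays. Krt19 was at 5.96 on training array 32 and 5.49 on validation array 22, above 8 of the 9 casein-positive arrays, where Csn1s1 was at 3.19 and 3.81 and Csn2 at 4.44 and 4.57. In all 3 of the 12 lay above the highest control for Krt19, 6 for Csn1s1, 7 for Csn1s2a and 4 for Csn3. With these arrays counted as casein-positive, 1 probe set passed in place of 19, that of Csn1s2a, and with them counted as casein-negative 14 did. With Csn2 as a continuous measure over all 52 arrays 73 probe sets passed, and Csn3 was among them (1.38 over the gap between the sets, adjusted p = 0.000153), as it was with casein-positive set above 7 (1.85, adjusted p = 0.00886). Csn3 passed in 6 of the 24 alternatives that held it. Without each casein-positive array in turn its limma adjusted p reached 0.155.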

How the data were processed

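The deposited values are on a log2 scale and came from RMA, run by the authors, which subtracts background, normalizes between arrays and condenses the probes of each probe set. The RMA version is not given in the sources used here, and it is not stated whether the values include the study's standardization on control probe sets. Each value had 3 significant digits. The table held 45101 probe sets, and 64 control probe sets and the 2 of Csn2 were left out of the tests. All columns were matched to a sample. Genes were named through the platform annotation, where 34943 of the tested probe sets had 1 symbol, 932 several and 9160 none, and 18192 genes were represented by their brightest probe set over all arrays.

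The sets entered limma 3.58.1 (R 4.3.3; lmFit, eBayes with intensity trend, two-sided, cohort as covariate, Benjamini-Hochberg over 45035 probe sets, adjusted p under 0.05). Errors of differences are SE. The script was tested on simulated data. Exact permutation tests and promoter counts were run in Python 3.11.15. Named genes were all members of the milk protein, prolactin and STAT5 and luminal lists, the 15 largest called rises and falls whose mean in a set exceeded the overall median value (4.77), up to 4 of smallest p per other list, and Myc. Other genes with a passing probe set, Odam and Prr27, single marker genes and the arrays named were chosen after their values were seen. The thresholds, members, lists and tests were chosen with earlier results of these data known. Arrays give no counts, and their number limits the precision. Alternatives varied covariates, arrays, thresholds, filter, variance model and normalization.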

Additional observations from a re-analysis of the deposited data

Results flagged for a closer look

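A casein-positive array was looked at again where the highest or lowest of the 9 values stood apart from its neighbor by more than 0.493 of the set's range. Of 55 probe sets of passing, milk protein and luminal genes 8 had such an array, where chance gives about 1 in 20 groups. Training array 22 stood apart high for Zfp184 at 4.8 (next 3.65), for Foxa1 at 3.31 (next 2.6) and for Spint2 at 9.47 (next 8.35). Training array 24 stood apart high for Krt18 at 7.08 (next 5.5), and training array 25 for the tight junction genes Cldn3 at 5.24 (next 4.59) and Cldn7 at 3.2 (next 2.81). Validation array 24 stood apart high for Wap at 4.48 (next 3.38), and validation array 20 stood apart low for Glce at 6.82 (next 7.79).

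Tumor arrays in neither set also carried signal above the highest control. Among the 13 low-numbered arrays, Csn1s2a reached 6.41 on validation array 3, whose Csn2 value was 7.07, and 11 lay above the highest control of 3.62. On the second Csn1s2a probe set that passed, 5 lay above its highest control of 2.99. Csn1s1 reached 3.4 on training array 5, with 7 above the control maximum of 2.08. Csn3 reached 3.19 on validation array 6, with 7 above 2.4, and Krt19 reached 4.35 on validation array 7, with 2 above 4.19. Genes that encode no milk protein did so too, with 6 arrays above the highest control for Krt5 and 6 for Ocln. For Glycam1 and Csn1s2b the count was 0. The actin difference ran from -2 to -1.2 on the low-numbered arrays and from -0.9 to -0.5 on controls. Among the 12 arrays between the thresholds, Csn1s1 reached 3.81 on validation array 22, Csn1s2a 4.72 and Csn3 2.94 on validation arrays 14 and 12, and Krt19 5.96 on training array 32. These differences were not tested.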

How the results depend on the processing

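Under 25 alternatives no value that passed changed sign. Csn1s1, Csn1s2a and Krt19 passed without each casein-positive array in turn (highest adjusted p = 0.000893, 0.000164 and 3.78e-05, for the brightest Csn1s2a probe set). All lost their calls with the replicate block, Csn1s1 and Krt19 also with the arrays between the thresholds counted as casein-positive (adjusted p = 0.094 and 0.0749), and Csn1s2a on the arrays of the block without it (adjusted p = 0.0676). Of 19 probe sets passing, without the cohort covariate 29 passed, and with 3 components of the control probe sets added 7 (5 of the 19). With the actin difference and 18S added 4 passed (4 of the 19), and with leukocyte and erythroid list means added 43. With dim probe sets left out 41 passed (14 of the 19). Csn1s1, which averaged 3.81 in casein-positive arrays, was among the dim ones and was not tested there. Without the intensity trend 42 passed, with array weights 9 (8 of the 19) and with casein-positive set above 7 173. With the arrays between the thresholds counted as casein-positive 1 passed (1 of the 19, 1 list member), with them counted as casein-negative 9 of the 19 did, and with Csn2 as a continuous term 73 (8 list members, against 4). With arrays centred on their medians 12 of the 19 remained. Without the 3 casein-positive arrays of low GAPDH difference, a fit chosen after seeing the data, 4 passed (4 of the 19). Without each casein-positive array in turn between 4 and 281 passed, 4 to 19 of them of the 19, with 3 to 10 list members: 4 without training 22 or 27, 69 without training 17, 281 without validation 16, 83 without validation 26, and 6 to 14 without each of the others. In the training cohort between 8 and 1037 passed (8 without training 22, 26 without training 27, 416 without training 25) and in the validation cohort between 0 and 4.

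The label numbers occur in both cohorts, but nothing says that they pair samples, and deviations of same-numbered arrays had a median r of -0.0469 (lowest -0.357, highest 0.212) over 12 numbers. With the replicate block 0 of 45035 probe sets passed on these 24 arrays, of which 3 numbers held both sets, and 0 of the 19 and 0 list members. The same arrays without the block, a fit chosen after seeing the data, gave 3 (2 of the 19, 2 list members). With the block the log2 fold change was 0.93 for Csn1s2a, 0.96 for Csn1s1 and 1.49 for Krt19 (adjusted p = 0.82 each), against 2.66, 1.96 and 1.36 with all arrays, and Csn1s2a and Csn1s1 had 2.31 and 2.01 on the same arrays without it. The cause was not tested.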
